A study of Mus musculus with 6 samples.

Results

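The 32 genes described here encode 18 enzymes of sterol synthesis, 11 enzymes of fatty acid synthesis, elongation and desaturation, and 3 regulators of both branches, out of 17778 genes tested on the arrays. They are a list of pathway genes, and no measured value is part of the rule: every probe that the array files name for a listed gene was taken, which gave 61 probes, and Msmo1 was found under its older name Sc4mol. The RNA was that of whole skin from the back of C57BL/6J mice, an inbred strain, all of them female and 6 to 8 weeks old. The shaved back received 62.5 mg of cream a day for 7 days. The cream held 5% imiquimod, an agonist of Toll-like receptor 7 used to provoke a psoriasis-like inflammation in mouse skin, in one group and was a vehicle cream in the other, and no genetic change is given for either group. There were 3 samples in each group, hybridised to 1 Agilent array each with a single dye. Whether samples of a group came from separate animals is not in the labels, so the spread behind each p-value may be technical.

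The direction of every difference rests on how arrays are linked to treatments. All 6 scanner files are filed under a sample of the other treatment than the one in their name. Arrays were grouped by the treatment in the file name, because the signals then matched the deposited value table column titled with that treatment (Spearman correlation 0.9999997 to 1.0000000 over 24253 probes, against 0.943 to 0.953 for the column of the sample under which the file was filed). Grouped by filing, each difference below would have the opposite sign. Slides were also uneven: slide 1 held the 3 vehicle arrays and imiquimod 1, and slide 2 held imiquimod 2 and 3. Vehicle 2 and 3 carry the quality status evaluate from the extraction software. On each array 61.2% to 67.4% of probes exceeded background, and arrays of the imiquimod group correlated at 0.992 with each other, against 0.960 to 0.983 within vehicle. Members of the list of known imiquimod response genes, such as the keratin gene Krt6b and the calgranulin gene S100a8, were higher on the imiquimod arrays for all 7 names tested, against 13.1% of all genes. That list was chosen with earlier results of these data known, so it is no test of the link.

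Sterol synthesis builds cholesterol from acetyl-CoA. The mevalonate arm makes isoprenoid units, these are joined into squalene, squalene is closed into the ring of lanosterol, and a series of demethylations, reductions and isomerisations turns lanosterol into cholesterol. Fatty acid synthesis also starts from acetyl-CoA: carboxylases make malonyl-CoA, fatty acid synthase makes palmitate, elongases of the Elovl family lengthen it and desaturases of the Scd and Fads families add double bonds. In skin both products serve the water barrier of the epidermis, and sebaceous glands make large amounts of lipid. The transcription factors Srebf1 and Srebf2 drive the genes of both branches, and the Insig proteins hold them in the endoplasmic reticulum when sterol is plentiful.

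Promoters in front of many of these genes share short sequence elements, which are shown because both branches are known targets of the same factors. RefSeq promoter windows (assembly GRCm38.p6, 250 bases before to 50 after the transcript start) matched 26 of the 32 genes with 32 windows. They covered 12 of the 13 genes that passed the test below, all but Scd1. The letters CCAAT, on either strand, stood in the windows of 22 of the 26 genes (84.6%) and of 14 of the 15 sterol genes with a window (93.3%), against 41.1% of 27025 genes with such windows. The GC box GGGCGG stood in 20 of the 26 (76.9%), against 38.2% of all genes, and the E-box CACGTG in 5 (19.2%), against 8.09%. By branch, the GC box stood in 14 of 15 sterol but 3 of 8 fatty acid genes. CCAAT stood in 5 of the 8 fatty acid genes. Of the 3 lower fatty acid genes with a window, 2 held CCAAT and 0 the GC box. The sterol regulatory element, searched as TCACNCCAC on both strands, stood in 1 of the 26, the sterol gene Hmgcs1 (3.85%), against 1.44% of all genes. No pattern contains another, and base composition was not matched. CCAAT stood in a window of each of the 4 higher and 4 lower sterol genes, in Dhcr7 in 1 of its 3 windows. A match is a description of letters, not a bound site.

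The last 100 bases before the start are printed 5′ to 3′ in the direction of the gene, with CCAAT or its complement ATTGG in capitals. The first 3 are sterol genes that were higher in imiquimod skin, the next 3 sterol genes that were lower, and the last 2 the elongase genes that were lower. These stretches lie at chrX:8193513-8193612, minus strand (Ebp), chr9:42264301-42264400, minus strand (Sc5d), chr5:114444169-114444268, plus strand (Mvk), chr13:119690251-119690350, plus strand (Hmgcs1), chr10:76531505-76531604, plus strand (Lss), chr8:64733579-64733678, minus strand (Msmo1), chr9:77917265-77917364, plus strand (Elovl5) and chr3:129532286-129532385, plus strand (Elovl6).
Ebp: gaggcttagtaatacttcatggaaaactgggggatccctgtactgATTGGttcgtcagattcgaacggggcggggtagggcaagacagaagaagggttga
Sc5d: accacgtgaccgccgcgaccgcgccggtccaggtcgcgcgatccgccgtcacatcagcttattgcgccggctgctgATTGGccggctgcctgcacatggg
Mvk: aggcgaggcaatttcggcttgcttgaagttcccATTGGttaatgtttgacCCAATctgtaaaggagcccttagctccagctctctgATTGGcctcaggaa
Hmgcs1: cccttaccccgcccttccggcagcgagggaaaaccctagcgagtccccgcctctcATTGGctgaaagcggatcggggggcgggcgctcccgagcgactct
Lss: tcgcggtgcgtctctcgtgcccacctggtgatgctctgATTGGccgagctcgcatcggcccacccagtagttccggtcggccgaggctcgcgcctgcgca
Msmo1: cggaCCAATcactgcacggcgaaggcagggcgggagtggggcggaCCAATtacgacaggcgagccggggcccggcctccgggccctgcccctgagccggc
Elovl5: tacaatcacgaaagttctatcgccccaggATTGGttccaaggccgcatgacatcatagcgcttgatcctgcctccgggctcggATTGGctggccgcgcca
Elovl6: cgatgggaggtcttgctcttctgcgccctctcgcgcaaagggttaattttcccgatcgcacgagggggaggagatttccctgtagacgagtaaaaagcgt
The 100 bases of Mvk held the letters 3 times, those of Msmo1 and Elovl5 2 times each, and those of Elovl6 not at all. The stretch of the Hmgcs1 window that holds the sterol regulatory element, in capitals, covers 49 bases (chr13:119690194-119690242, plus strand).
Hmgcs1 element: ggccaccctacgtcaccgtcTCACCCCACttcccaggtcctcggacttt

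Across the pathway, imiquimod skin held less RNA of 4 fatty acid genes, by 3.70-fold to 14.3-fold, while sterol genes moved both ways by smaller amounts. All 32 genes were well above background on all 6 arrays. At an adjusted p under 0.05 (limma, Benjamini-Hochberg over all genes), 13 of 32 differed (40.6%), 4 higher and 9 lower in imiquimod skin, where 23.6% of all genes did, 13.1% higher and 10.5% lower. Differences are log2 values, imiquimod minus vehicle, so that 1 is 2-fold. The sterol branch had 4 higher, 4 lower and 10 that did not pass, with a median difference of -0.10. The fatty acid branch had 0 higher, 4 lower and 7 that did not pass, with a median of -0.42, and all 4 were at least 2-fold lower, which held for 5.74% of all genes. None of the 32 was at least 2-fold higher, against 6.19% of all genes. At an unadjusted p under 0.05, 9 sterol genes, 4 fatty acid genes (0 of them higher) and 1 regulator differed, 14 of the 32, against 39.0% of all genes. The median of all genes was 0.023. Groups did not overlap in 10 of 18 sterol and 5 of 11 fatty acid genes, and in 46.6% of all genes. The difference between the branches was not itself tested.

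Slide and single arrays moved some of these counts. With slide as a block, 3 fatty acid genes (Elovl6, Elovl5 and Scd1) and 2 sterol genes (Ebp and Lss) still passed, and 1059 of all genes did. Within slide 1, with 3 vehicle arrays and 1 imiquimod array, 0 of the 32 and 8 of all 17778 genes passed, while 11 of the 32 and 3454 of all genes had an unadjusted p under 0.05. The estimates were those of the block. The fatty acid genes lower numbered 4 or 5 under the other 9 alternatives and when any 1 array was left out. Without vehicle 2 and 3 together, only vehicle 1 was left in its group. The 4 lower sterol genes lost their calls there, and fewer of all genes were called than with all arrays. The differences of these 4 genes were then -1.17 (Lss), -1.02 (Msmo1), -0.55 (Dhcr7) and -0.42 (Hmgcs1). When any 1 array was left out, 1 to 3 sterol genes were lower and 1 to 3 were higher. In whole skin, fewer cells of a type and less RNA per cell cannot be told apart.

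**Figure D1:**
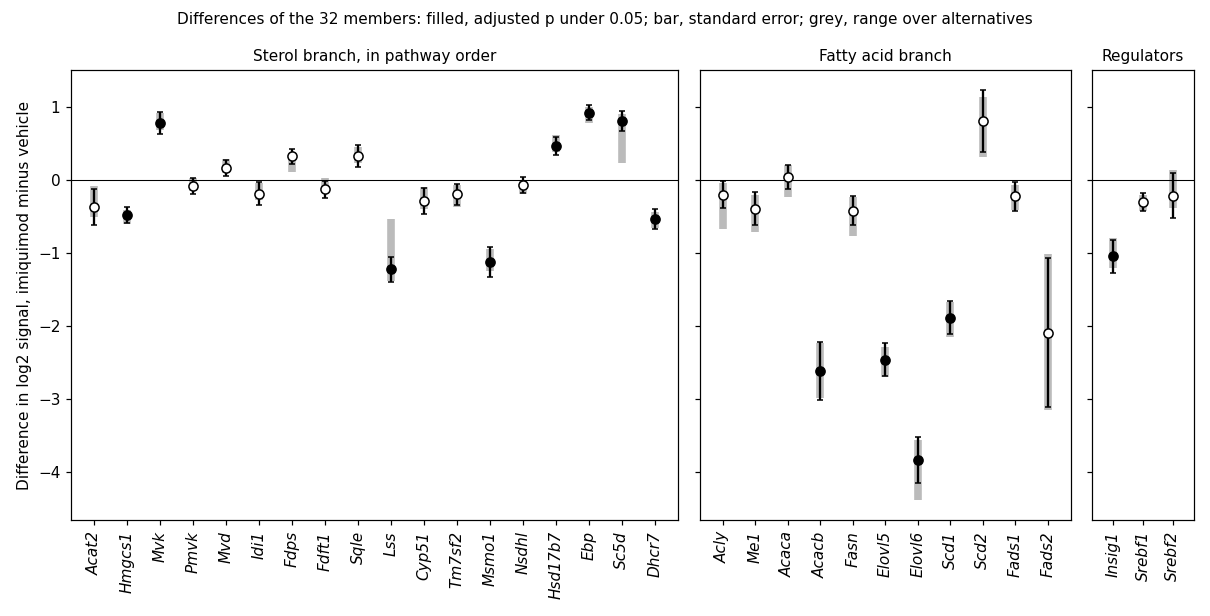
The log2 difference, imiquimod minus vehicle (y axis), of each of the 32 genes (x axis), by branch: points are fitted differences, filled where the adjusted p was under 0.05, black bars are standard errors and grey lines the range over the alternatives. The 4 filled fatty acid genes lie between -3.83 and -1.89, and the filled sterol genes lie on both sides of 0, between -1.22 and 0.93.

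The fatty acid genes that fell were the elongases Elovl6 and Elovl5, the mitochondrial carboxylase Acacb and the desaturase Scd1. Elovl6 lengthens palmitate to stearate. Its normalized log2 signals (log2 processed signal minus the 75th percentile of the array) were 1.57, 2.47 and 2.33 on imiquimod arrays 1 to 3 and 5.91, 5.57 and 6.39 on vehicle arrays 1 to 3. All vehicle arrays were far above all imiquimod arrays. Elovl6 fell by 3.83 (SE 0.31, 95% interval -4.60 to -3.07, limma adjusted p = 0.00206), 14.3-fold, the 150th lowest difference of 17778 genes. Its probe lies at chr3:129341248-129341307 (mm9, as are all probe positions here).

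Elovl5 lengthens polyunsaturated fatty acids. Elovl5 signals were 1.61, 1.60 and 1.47 in imiquimod skin and 4.17, 3.54 and 4.37 in vehicle skin, with the imiquimod arrays close together and the vehicle arrays all above them. The difference was -2.46 (SE 0.23, limma adjusted p = 0.00260), 5.51-fold, and a second probe differed by -2.36. The probe lies at chr9:77832205-77832264.

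Acacb makes the malonyl-CoA that restrains fatty acid oxidation at the mitochondrion. Acacb read -0.52, -0.18 and 0.04 in imiquimod skin and 2.36, 1.66 and 3.17 in vehicle skin. The vehicle arrays were the more scattered, and vehicle 2 was the lowest of them. Acacb fell by 2.62 (SE 0.39, limma adjusted p = 0.00890), 6.14-fold, at chr5:114700635-114700695. A second, dimmer probe, well above background on 4 of the 6 arrays, differed by -3.31. With slide as a block the difference was -2.92 and its adjusted p was 0.0577. Acaca, the cytosolic carboxylase that feeds fatty acid synthase, differed by 0.043 (95% interval -0.37 to 0.45, adjusted p = 0.871), and its 4 probes ranged from -0.57 to 0.12.

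Scd1, a stearoyl-CoA desaturase that makes monounsaturated fatty acids, read 3.24, 3.61 and 3.66 in imiquimod skin and 5.21, 5.13 and 5.82 in vehicle skin. Every vehicle array was above every imiquimod array. Scd1 fell by 1.89 (SE 0.23, limma adjusted p = 0.00490), 3.70-fold, at chr19:44469387-44469446. Scd2, a second desaturase of the same family, read 5.13, 4.91 and 4.99 in imiquimod skin and 4.52, 4.87 and 3.21 in vehicle skin. Every imiquimod array was above every vehicle array, with vehicle 3 far below vehicle 1 and 2, and the difference of 0.81 (SE 0.43, 95% interval -0.23 to 1.85) did not pass (adjusted p = 0.215). It was 0.31 without vehicle 3 and 1.14 without vehicle 2 (limma adjusted p = 0.196 and 0.0881). The Scd2 signal minus the Scd1 signal was 1.90, 1.30 and 1.33 on the imiquimod arrays and -0.69, -0.26 and -2.61 on the vehicle arrays. Probes differ in brightness, so only its change between groups can be read, which was 2.70. This pair was formed after both genes were seen, so its change is given with no test.

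The delta-6 desaturase gene Fads2 read -2.69, -2.93 and -2.49 in imiquimod skin and -0.66, 1.56 and -2.73 in vehicle skin. Vehicle 3 lay among the imiquimod arrays. The difference of -2.09 (SE 1.02, 95% interval -4.60 to 0.41) did not pass with all arrays (adjusted p = 0.186), and ranged from -3.16 without vehicle 3 (limma adjusted p = 0.0271) to -1.01 without vehicle 2 (0.266). Fads1, the delta-5 desaturase gene, differed by -0.22 (95% interval -0.71 to 0.27, adjusted p = 0.456).

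Fasn, which encodes fatty acid synthase itself, read 5.97, 6.42 and 6.54 in imiquimod skin and 6.54, 6.68 and 6.97 in vehicle skin. Its highest imiquimod array reached its lowest vehicle array, and the difference was -0.42 (95% interval -0.90 to 0.07, adjusted p = 0.175). With quantile normalization it was -0.69 (limma adjusted p = 0.0431) and with the deposited value table -0.70 (0.0397). It was -0.25 without imiquimod 1 (0.399) and -0.23 without vehicle 2 and 3 together (0.584). Acly, which supplies cytosolic acetyl-CoA, differed by -0.20 (adjusted p = 0.467), and its second probe by -1.14. Me1, malic enzyme, which supplies NADPH, differed by -0.39 (adjusted p = 0.255). Of the 6 elongase and desaturase genes among the 32, Elovl6, Elovl5 and Scd1 passed and Scd2, Fads1 and Fads2 did not. The share of all genes that passed was 23.6%.

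**Figure D2:**
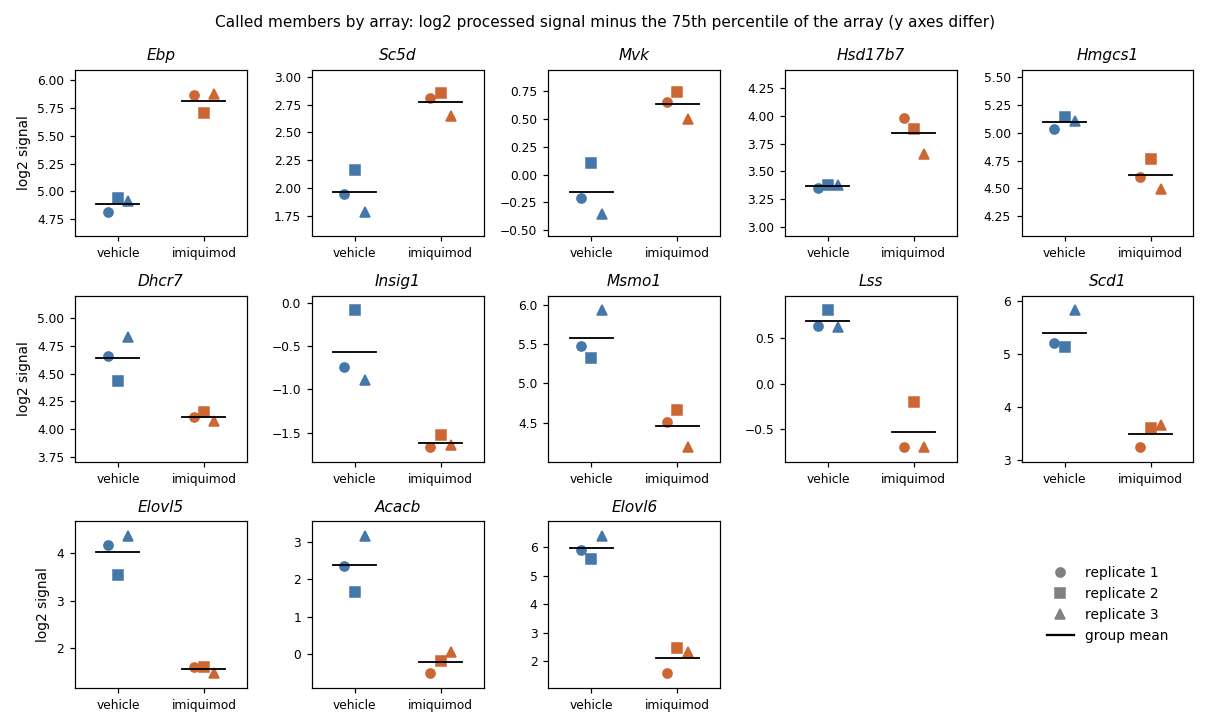
Normalized log2 signal (y axis) of each gene that passed, on each array by group (x axis), 1 panel a gene with its own y axis; circles, squares and triangles are replicates 1, 2 and 3 and lines are group means. The groups do not overlap in any panel, and Elovl6 shows the widest gap, from 2.47 to 5.57.

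Of 6 tested relatives of these enzymes that are not among the 32, Scd3 and Elovl3 were lower and 4 did not pass. The share of all genes that were lower was 10.5%. Scd3, a desaturase of sebaceous glands, read 2.03, 0.09 and 1.97 in vehicle skin and was well above background on 1 of the 3 imiquimod arrays (-6.71, -5.04 and -5.33). It entered the test through the vehicle arrays, and its values are given as a description only. Elovl3, an elongase of the same glands, read -3.24, -1.29 and -1.94 in imiquimod skin and 2.90, 3.51 and 3.35 in vehicle skin, and fell by 5.41 (SE 0.50, adjusted p = 0.00263). Elovl1 (0.17), Elovl4 (-0.30), Elovl7 (-0.20) and Fads3 (-1.39) did not pass, and Scd4 and Elovl2 were too dim to test. Within the Elovl family, 3 of 6 tested genes passed, all of them lower, where 10.5% of all genes were lower. The family was picked after its values were seen.

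**Figure D3:**
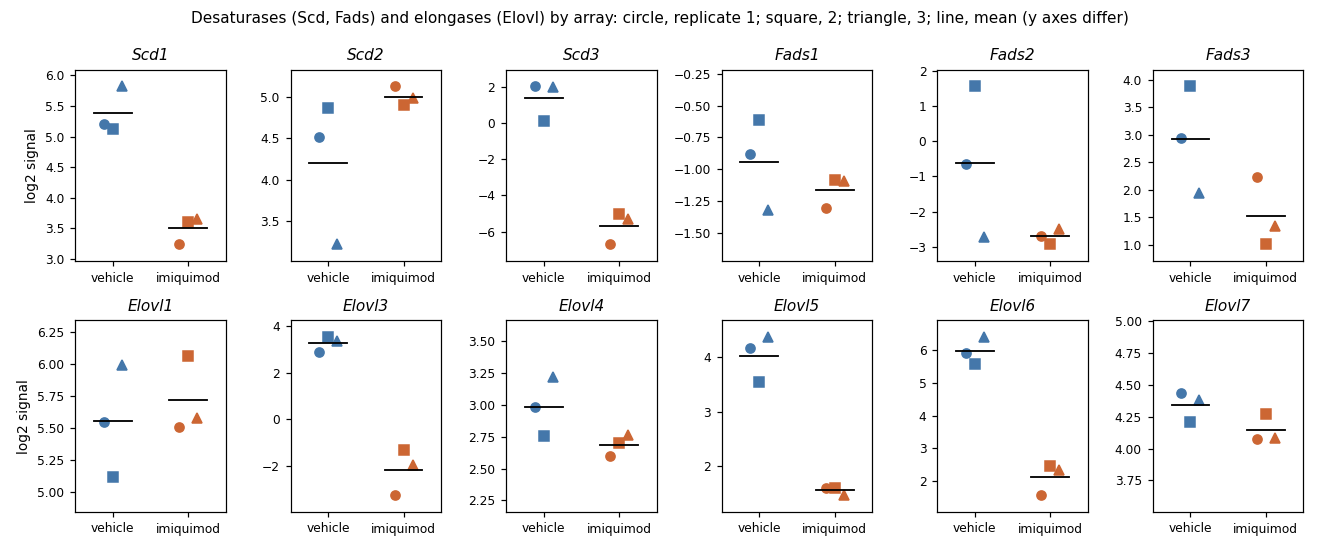
Normalized log2 signal (y axis) of the desaturase and elongase genes tested, on each array by group (x axis), with circles, squares and triangles for replicates 1, 2 and 3 and lines for means. Scd1 and Scd3 lie lower and Scd2 higher on the imiquimod arrays, and vehicle 3 of Fads2, at -2.73, lies among the imiquimod arrays.

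In the mevalonate arm, 1 of 7 genes was higher, 1 was lower and 5 did not pass. Thus 28.6% were called, near the 23.6% of all genes. Hmgcs1, which joins acetyl-CoA units into HMG-CoA, read 4.61, 4.76 and 4.50 in imiquimod skin and 5.04, 5.14 and 5.11 in vehicle skin. The vehicle arrays lay close together and above all imiquimod arrays, and the difference was -0.48 (SE 0.11, limma adjusted p = 0.0322), with its 3 probes from -0.83 to -0.34. Mvk, mevalonate kinase, read 0.65, 0.75 and 0.50 in imiquimod skin against -0.21, 0.10 and -0.35. It rose by 0.79 (SE 0.15, limma adjusted p = 0.0188), with both probes at 0.79, at chr5:114905993-114908940. The thiolase gene Acat2 (-0.37), the phosphomevalonate kinase gene Pmvk (-0.08), the decarboxylase gene Mvd (0.16) and the isomerase gene Idi1 (-0.19) did not pass, at adjusted p from 0.312 to 0.612. Fdps, farnesyl diphosphate synthase, read 2.91, 2.98 and 2.84 against 2.59, 2.66 and 2.50, a difference of 0.33 with no overlap that did not pass (adjusted p = 0.0693), and its second probe differed by -0.11. It passed with normexp background correction (0.0403) and with a variance trend (0.0406). As the mean of both probes Fdps differed by 0.11 (adjusted p = 0.673), and with slide as a block by 0.33 (0.281).

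Of the 3 genes from squalene synthesis to lanosterol, Lss passed, where 23.6% of all genes did. Lss, lanosterol synthase, closes the sterol ring. Lss read -0.70, -0.20 and -0.70 in imiquimod skin and 0.64, 0.81 and 0.62 in vehicle skin. It fell by 1.22 (SE 0.17, limma adjusted p = 0.00741), at chr10:76019513-76019572. Its other probes differed by -0.05 and -0.33, so the size rests on the brightest of 3 probes, and their mean differed by -0.53. Squalene synthase, Fdft1, differed by -0.12 (adjusted p = 0.457), and squalene epoxidase, Sqle, by 0.33 (adjusted p = 0.149). The second probe of Fdft1 differed by 0.18.

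After lanosterol, 3 of 8 genes were higher and 2 lower, where 13.1% of all genes were higher and 10.5% lower. Ebp, the sterol isomerase that shifts a double bond of the ring, read 5.87, 5.71 and 5.88 in imiquimod skin and 4.82, 4.94 and 4.91 in vehicle skin. The groups were each tight and lay well apart. Ebp rose by 0.93 (SE 0.11, limma adjusted p = 0.00424), 1.90-fold, at chrX:7762463-7762522, the highest difference of the 32. Sc5d, the sterol desaturase that acts after Ebp, read 2.81, 2.85 and 2.65 against 1.95, 2.16 and 1.78. Its difference was 0.81 (SE 0.14, limma adjusted p = 0.0123), at chr9:42062857-42062916, but its second probe differed by -0.34. As the mean of both probes Sc5d differed by 0.24 (adjusted p = 0.267). Hsd17b7, a ketosteroid reductase, read 3.98, 3.89 and 3.66 against 3.35, 3.38 and 3.38, a rise of 0.47 (SE 0.12, limma adjusted p = 0.0390), and 0.46 at its second probe, at chr1:171882591-171882650 for the first.

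Msmo1, a methylsterol oxidase that acts before these, read 4.51, 4.66 and 4.18 in imiquimod skin and 5.48, 5.32 and 5.93 in vehicle skin. It fell by 1.12 (SE 0.21, limma adjusted p = 0.0166), at chr8:67196982-67197041. Dhcr7, the reductase of the last step to cholesterol, read 4.11, 4.15 and 4.08 against 4.66, 4.43 and 4.83. It fell by 0.53 (SE 0.13, limma adjusted p = 0.0363), and by 0.49 at its second probe, at chr7:151034253-151034312 for the first. Thus Ebp and the brighter probe of Sc5d were higher, while Dhcr7, which acts after both enzymes, was lower. The second probe of Sc5d differed by -0.34, and the call of Dhcr7 was lost without some single arrays. The demethylase gene Cyp51 (-0.28), the reductase gene Tm7sf2 (-0.19) and the dehydrogenase gene Nsdhl (-0.07) did not pass, at adjusted p from 0.297 to 0.688. The 3 probes of Cyp51 ranged from -0.28 to 0.11, and the 4 probes of Nsdhl from -0.71 to 0.05.

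Of the 8 sterol calls, 6 were lost when some single arrays were left out, while their differences moved little. Calls over all genes also fell, from 4196 to between 1689 and 1885, without vehicle 1 or any 1 imiquimod array. Without vehicle 2 or vehicle 3 they rose instead, to 4673 and 4486. Hmgcs1 and Hsd17b7 no longer passed when any 1 of the 6 arrays was left out (adjusted p 0.0545 to 0.106 and 0.0502 to 0.126). Dhcr7 was lost without any 1 array but vehicle 2 (0.0550 to 0.114), and Mvk without vehicle 1 or any 1 imiquimod array (0.0509 to 0.0748). Sc5d was lost without imiquimod 1, imiquimod 2 or vehicle 1 (0.0534 to 0.0549), and Msmo1 without imiquimod 1, imiquimod 3 or vehicle 1 (0.0566 to 0.0584). Ebp and Lss passed without any 1 array, as did Elovl6, Elovl5, Acacb and Scd1. Over these fits the differences ranged from -0.55 to -0.41 for Hmgcs1, 0.40 to 0.57 for Hsd17b7, -0.64 to -0.44 for Dhcr7, 0.69 to 0.92 for Mvk, 0.72 to 0.91 for Sc5d and -1.25 to -0.95 for Msmo1.

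Among the 3 regulators, Insig1 was lower, where 10.5% of all genes were, and the factors themselves did not pass. Insig1, which retains the Srebf proteins when sterol is plentiful, read -1.67, -1.53 and -1.64 in imiquimod skin and -0.74, -0.08 and -0.89 in vehicle skin. It fell by 1.04 (SE 0.22, limma adjusted p = 0.0245), by 0.81 at its second probe, at chr5:28404246-28404305. The call was lost without vehicle 1 or any 1 imiquimod array (adjusted p 0.0661 to 0.0862), where the difference was -1.13 to -1.01. Srebf1, which mainly drives fatty acid genes, read 4.43, 4.32 and 4.45 against 4.68, 4.54 and 4.87, with no overlap, a difference of -0.29 (95% interval -0.60 to 0.01, adjusted p = 0.135). Srebf2, which mainly drives sterol genes, read 4.14, 4.10 and 3.12 against 3.82, 4.27 and 3.91. Imiquimod 3 was low and the groups overlapped, and the difference was -0.21 (95% interval -0.96 to 0.54, adjusted p = 0.653). The 4 probes of Srebf2 disagreed in sign, from -0.21 to 0.37, and their mean differed by -0.05. The probe at 0.37 read 0.85, 0.85 and 0.87 in imiquimod skin and 0.44, 0.59 and 0.45 in vehicle skin.

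Other genes of the same pathways moved in both directions. Of 18 further sterol genes 17 were tested, 2 were higher, 4 lower and 11 did not pass, with a median of -0.15. Thus 35.3% were called, against 23.6% of all genes. Among the lower ones were Insig2, a relative of Insig1 (-1.85, SE 0.10, limma adjusted p = 0.00116), and the acyltransferase gene Soat1, which esterifies cholesterol (-2.13, SE 0.18, limma adjusted p = 0.00222). Insig2 read 1.75, 1.84 and 1.71 in imiquimod skin and 3.60, 3.63 and 3.62 in vehicle skin, with each group close together. Among the higher was the sterol exporter gene Abcg1 (0.72, SE 0.12, limma adjusted p = 0.0126).

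Of 27 further fatty acid genes 26 were tested, 2 were higher, 8 lower and 16 did not pass, with a median of -0.65. Thus 38.5% were called, against 23.6% of all genes. Scd3 is among the 8 lower and entered the test through the vehicle arrays, so the lower count is a description only. Besides Scd3 and Elovl3, the lower ones by smallest p were Ppara, a nuclear receptor of fatty acid oxidation (-3.19, SE 0.30, limma adjusted p = 0.00265), and Hsd17b12, which carries out the second step of the elongation cycle (-1.35, SE 0.17, adjusted p = 0.00515). The higher were Fabp5, the epidermal fatty acid binding protein (2.95, SE 0.37, adjusted p = 0.00545), and Pgd, of the pentose phosphate pathway that supplies NADPH (0.68, SE 0.11, adjusted p = 0.0121).

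Markers of sebaceous cells were lower in imiquimod skin, and 1 of 9 markers of fat cells was. Of 8 tested sebocyte markers, 7 were lower, against 10.5% of all genes, and 1, Mogat2, was higher (1.33). Scd3 and Elovl3 stand in this list too. Scd3, Awat2 and Dgat2l6 were well above background on 1 of 3 imiquimod arrays and Far2 on 2 of 3. These 4 entered the test through the vehicle arrays, so the count of 7 lower is a description only. The other 4 were measured on all arrays. The brightest were Krt79 (-2.32) and Fa2h, which makes 2-hydroxy fatty acids (-5.90). The log2 of the summed linear signal of all 8 sebocyte markers was 3.15 to 4.90 on the imiquimod arrays and 7.01 to 7.27 on the vehicle arrays. Awat1 and Mc5r were too dim to test. Of 9 tested adipocyte markers, 1 was lower, Lep (-2.07), with a median of -0.41, and the sums overlapped between the groups (7.94 to 8.37 against 8.00 to 9.11). The brightest were Cfd (-0.42) and Fabp4 (-0.34).

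Hair inner root sheath markers were lower in 6 of 6 tested, against 10.5% of all genes. Krt25 was well above background on 0 and Krt71 on 2 of 3 imiquimod arrays. Both entered the test through the vehicle arrays, so the count of 6 is a description only. The log2 of the summed linear signal of the 6 markers was 1.94 to 2.58 on the imiquimod arrays against 9.48, 10.2 and 6.93 on vehicle 1 to 3. Vehicle 3, the lowest of these, was also lowest of the vehicle arrays for Scd2 and Fads2, and highest of them for Elovl6, Elovl5, Acacb and Scd1. Keratinocyte markers were higher in 4 of 6 (median 1.03) and fibroblast markers in 4 of 6 (median 0.67). Macrophage markers were higher in 4 of 6 (median 1.71) and neutrophil markers in 5 of 5 (median 4.91). Of all genes, 13.1% were higher. By limma, 0 of 8 skeletal muscle and 0 of 4 T cell markers passed. At an unadjusted p under 0.05, 1 and 2 of them were lower, where 39.0% of all genes differed in either direction. The T cell marker Cd4 was well above background on 0 of 3 imiquimod arrays, so it entered the test through the vehicle arrays. The inner root sheath and neutrophil markers tested all moved with treatment. So did the sebocyte markers, with Mogat2 in the other direction, and 4 of 6 macrophage markers. The part of these markers in the differences of the 32 genes was not tested.

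**Figure D4:**
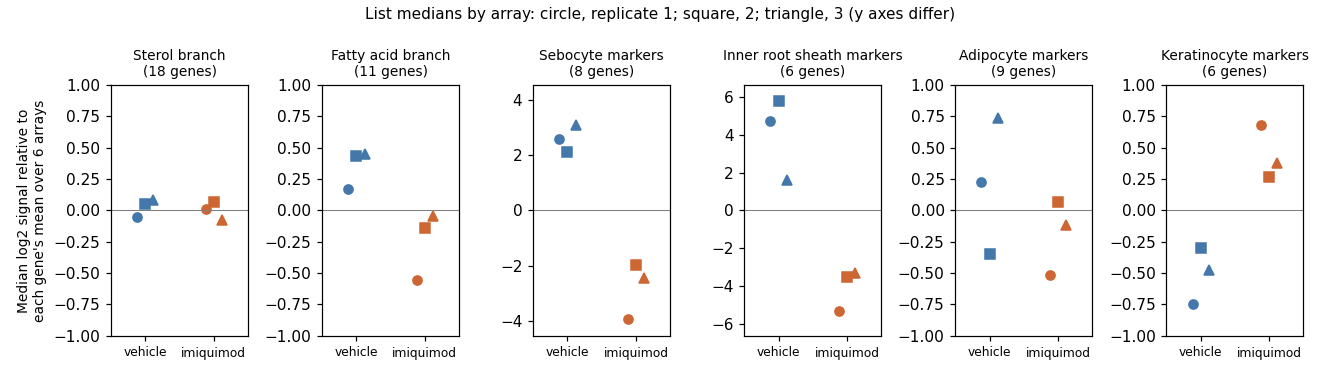
Median over genes of the normalized log2 signal, centred on each gene's mean over the 6 arrays (y axis), for each gene list on each array by group (x axis); y axes differ between panels. The sterol medians overlap between groups, from -0.08 to 0.08, the fatty acid medians are -0.55 to -0.05 in imiquimod and 0.17 to 0.45 in vehicle skin, and the sebocyte medians are -3.94 to -1.96 against 2.10 to 3.09.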

How the data were processed

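Total RNA of 6 whole skin samples (0.5 ug labelled per array) was measured on arrays of 45018 spots. The scanner files deposited by the authors give linear spot intensity, and the processed signal in them came from Agilent Feature Extraction, version 10.7.3.1 per the file headers and 9.1 per the submitters' processing notes. The authors' deposited table of values holds log2 signals, with column medians of 7.05 and a normalization that is not given in the sources used here. Positions are those of the array files (mm9).

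Control spots and 322 outlier spots were left out, spots of a probe were averaged, and values were log2 processed signals minus the 75th percentile of the array. Probes well above background on at least 3 of 6 arrays were tested (27415 probes), and the probe of highest mean stood for a gene. Probes were named by RefSeq accession (27644) or synonym (470), and otherwise by the file. The comparison used lmFit and eBayes of limma 3.58.1 (R 4.3.3), two-sided and without covariates, and Benjamini-Hochberg adjustment over 17778 genes at 0.05.

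The 32 genes and all lists were chosen with earlier results of these data known. All 32 genes are named; genes of the other pathway lists are named where they passed, at most 6 per list by smallest p, and marker lists by the 2 members of highest mean, not all of which are reported. Some genes of the further sterol list are counted but not reported here by name. Other genes named from a list, and the Elovl, Scd and Fads relatives, were chosen after their values were seen. On simulated arrays over 17778 genes the fit recovered 36%, 78%, 86% and 98% of 50 genes each changed by a log2 value of 1, 2, 3 and 4, and called 6 of 17578 unchanged genes. Far fewer genes were changed there than the 23.6% called in the data, and the noise was independent, with no slide effect. These rates therefore need not hold for the real arrays. The number of arrays limits the precision. Replicate numbers did not pair the samples. Alternatives changed the normalization, background, filter, probe choice, variance model, value source, blocks and arrays used.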

Additional observations from a re-analysis of the deposited data

How the results depend on the processing

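Of the 544 values of the 32 genes under 17 alternatives, 460 kept direction and side of the threshold, 68 lost the call, 6 gained it and 10 changed sign, all of the last in genes that did not pass. These were Fdft1 (0.028) and Acaca (-0.14) with the mean of probes, Acaca (-0.23) and Srebf2 (0.14) with slide as a block and within slide 1, Pmvk (0.026) without both vehicle arrays of status evaluate, Acaca (-0.079) and Srebf2 (0.12) without imiquimod 3, and Acaca (-0.036) without vehicle 1. Leaving out 1 array, Acaca ranged from -0.079 to 0.18 and Srebf2 from -0.39 to 0.12. The fatty acid median was -0.69 with quantile normalization, -0.67 with the mean of probes, -0.70 with the value table and -0.76 with slide as a block and within slide 1.

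With slide as a block, 1059 genes passed (541 higher, 518 lower), 1 sterol gene was higher, 1 lower and 0 regulators passed. Within slide 1, 8 genes passed (7 higher, 1 lower), with 0 sterol genes higher, 0 lower, 0 fatty acid genes and 0 regulators by limma, and 6, 5 and 0 sterol, fatty acid and regulator genes at an unadjusted p under 0.05. Without a filter, 2 sterol genes were lower. Without both vehicle arrays of status evaluate, the lower sterol genes lost their calls, and fewer of all genes were called. The sterol median was then -0.025. The cause was not tested.

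Same-numbered arrays deviated together with correlations of -0.0872, 0.0676 and 0.0854, so the labels share only a number. With the replicate block, 2207 genes passed (1164 higher, 1043 lower), and 1 sterol gene was lower.

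Leaving out 1 array gave 1689 to 4673 genes called (944 to 2514 higher, 745 to 2215 lower), 1 to 3 sterol genes higher, 1 to 3 lower, a sterol median of -0.15 to -0.05, 0 fatty acid genes higher, 4 to 5 lower, a fatty acid median of -0.53 to -0.25, and 0 to 1 regulators.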
